A study of Mus musculus with 6 samples.

Results

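The genes described here are the 7 that encode the peptides vasoactive intestinal peptide (*Vip*), pituitary adenylate cyclase-activating polypeptide (*Adcyap1*, the peptide PACAP) and secretin (*Sct*), and their receptors *Vipr1*, *Vipr2*, *Adcyap1r1* and *Sctr*. They were taken by symbol from the 32285 genes of the count tables, without a filter on their values. The set was chosen with earlier results of these data known. Single cells had been sequenced from whole ganglia of mouse pups of both sexes at postnatal day 5. All groups shared a Cre transgene, carried on a bacterial artificial chromosome, and the Cre-dependent red reporter tdTomato at the Rosa locus. A first round, with version 2 of the reagents and 10000 cells loaded per library, gave the stellate and sphenopalatine libraries and a pelvic library called pelvic_1. A second round, with version 3 and 5300 cells loaded, gave the coeliac and lumbar libraries and a second pelvic library called pelvic_2. The stellate, coeliac and lumbar ganglia are sympathetic and the sphenopalatine ganglion is parasympathetic, while the class of the pelvic ganglion was the question of the study. Only the pelvic ganglion thus had 2 libraries, and for every other ganglion a difference has no replicate check.

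All 3 peptides belong to the secretin and glucagon family, are cut from longer precursors, and act on receptors of class B that couple to Gs and raise cyclic AMP (cAMP). *Vipr1* and *Vipr2* encode receptors that bind VIP and PACAP alike, *Adcyap1r1* encodes PAC1, which prefers PACAP, and *Sctr* encodes the secretin receptor. VIP is the classical companion of acetylcholine in parasympathetic neurons and in the sympathetic neurons that innervate sweat glands, and PACAP is best known in these ganglia as a transmitter of the preganglionic axons.

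In GRCm38, the build of the count tables, *Vip* (ENSMUSG00000019772) lies at chr10:5639218-5647617 and *Adcyap1* (ENSMUSG00000024256) at chr17:93199017-93206537, both on the plus strand. *Sct* (ENSMUSG00000038580) lies at chr7:141278330-141279133 on the minus strand. The receptor genes lie on the plus strand, *Vipr1* (ENSMUSG00000032528) at chr9:121642716-121672954, *Vipr2* (ENSMUSG00000011171) at chr12:116077726-116146261, *Adcyap1r1* (ENSMUSG00000029778) at chr6:55451978-55501451 and *Sctr* (ENSMUSG00000026387) at chr1:120006894-120063536. The annotation lists all 7 as protein coding.

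The promoters of *Vip* and *Adcyap1* are printed because these 2 peptide genes were both higher in sphenopalatine and pelvic neurons than in the sympathetic neurons. Each line holds the 250 bases before the annotated start from RefSeq (GRCm38.p6, plus strand, *Vip* at chr10:5638968-5639217 and *Adcyap1* at chr17:93198767-93199016), with the letters TGACG, the half-site of the cAMP response element, in capitals.
Vip: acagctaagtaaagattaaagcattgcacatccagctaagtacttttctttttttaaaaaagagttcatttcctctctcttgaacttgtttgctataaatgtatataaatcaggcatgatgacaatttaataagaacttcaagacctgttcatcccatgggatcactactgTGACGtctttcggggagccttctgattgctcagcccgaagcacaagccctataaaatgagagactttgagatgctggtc
Adcyap1: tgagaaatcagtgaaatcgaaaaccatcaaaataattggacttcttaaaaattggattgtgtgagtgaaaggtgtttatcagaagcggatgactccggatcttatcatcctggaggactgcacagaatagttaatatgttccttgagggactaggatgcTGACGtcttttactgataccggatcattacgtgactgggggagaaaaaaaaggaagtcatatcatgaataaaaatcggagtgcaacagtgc
The half-site begins 79 bases before the start of *Vip* and 91 bases before that of *Adcyap1*. RefSeq has another start of *Adcyap1*, before which the same half-site begins at 242 bases. On either strand, TGACG stood in 5836 of 32851 promoter stretches of this length, or 17.8%. The full element TGACGTCA, which contains the half-site, stood in 508 of them, or 1.55%, and in none of the 7 stretches found for 6 of the 7 genes. Around the half-site, *Vip* and *Adcyap1* share the run TGACGTCTTT, which stood in 20 of the 32851 stretches, or 0.0609%, and was noticed after the sequences were seen. It was picked as the longest run shared by the printed stretches, so its presence in both was fixed by the search. The low share is therefore no measure of how unusual the match is. *Vipr1* also has a half-site, 13 bases before its start, while the stretches of *Sct*, *Vipr2* and *Adcyap1r1* have none. These are matches of letters and not shown to be bound.

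Levels are given in CPM, the counts of a gene in unique molecular identifiers (UMIs, 1 per captured RNA molecule), summed over the cells of a group and scaled to 1000000 UMIs of all genes. Intervals are exact Poisson limits at 95% that cover counting error only. Levels are compared between groups for 1 gene, not between genes. Droplet filters left 21442 cells, of which 6993 were selected as neurons by their marker genes: 2711 stellate, 1877 sphenopalatine, 879 pelvic_1, 237 coeliac, 927 lumbar and 362 pelvic_2 neurons. Their median depth was between 26686 UMIs in the stellate and 108546 in pelvic_2. Glial cells, 7399 in all, served to measure RNA that floats free and is captured with any cell: the median level of 7 neuronal genes in glia was 20.3% of that in neurons for the stellate, and between 3.04% and 9.57% in the other libraries. Pairs of libraries shared up to 49 cell barcodes in round 1 and up to 4 otherwise.

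The peptide *Vip* was found in nearly every parasympathetic neuron, in most pelvic neurons and in a small minority of sympathetic ones. The sum over neurons gave 2763 CPM in the sphenopalatine ganglion, 1338 CPM in pelvic_1 and 2679 CPM in pelvic_2. It gave 169 CPM in the stellate ganglion, 85.3 CPM in the lumbar chain and 0.667 CPM in the coeliac ganglion, where 12 UMIs were seen in all. The order of the levels therefore placed the sphenopalatine ganglion and pelvic_2 at the top, and the coeliac ganglion far below the other sympathetic ganglia.

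The share of neurons with at least 1 UMI of *Vip* was 100% in the sphenopalatine ganglion, 86.9% in pelvic_1 and 96.7% in pelvic_2, against 28.0% in the stellate, 21.2% in the lumbar and 3.38% in the coeliac libraries. After each neuron was thinned to 4000 UMIs, these shares were 98.9%, 54.3%, 71.4%, 8.58%, 7.22% and 0.862%. Glial cells had *Vip* UMIs too, in 76.0% of them in the sphenopalatine library, 40.6% in pelvic_1, 43.6% in pelvic_2, 15.4% in the stellate and 4.84% in the lumbar library, at medians of 3495 to 12186 UMIs per cell. Shares from full counts are thus partly free RNA, and the summed levels are the better guide. Glia held 28.7% of the neuronal *Vip* level in the stellate, 12.8% in the sphenopalatine, 9.41% in pelvic_1, 5.67% in the lumbar and 2.58% in the pelvic_2 library.

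*Vip* was spread more evenly over sphenopalatine neurons than over stellate and lumbar ones. The 10% of neurons with the most *Vip* held 31.0% of its UMIs in the sphenopalatine ganglion. The same fraction held 96.3% in the stellate ganglion and 98.1% in the lumbar chain.

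*Adcyap1* followed a like order among ganglia. It gave 132 CPM in the sphenopalatine ganglion, 63.6 CPM in pelvic_1 and 92.1 CPM in pelvic_2, against 17.8 CPM in the stellate, 8.83 CPM in the lumbar and 2.89 CPM in the coeliac libraries. Neurons with a UMI of *Adcyap1* made up 92.0%, 55.1% and 66.0% in the first 3 and 21.2%, 20.6% and 9.28% in the last 3. The glial levels were between 0 and 12.8 CPM, the highest in the sphenopalatine library.

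*Sct*, the hormone gene first known from the gut, was low in all ganglia and highest in the sympathetic ones. It gave 8.31 CPM in the stellate, 7.63 CPM in the lumbar and 7.51 CPM in the coeliac neurons. The sphenopalatine neurons gave 2.37 CPM, pelvic_1 3.39 CPM and pelvic_2 3.52 CPM. Levels in glia lay between 0 and 1.64 CPM, below the neuronal level of the same library in every library.

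**Figure D1:**
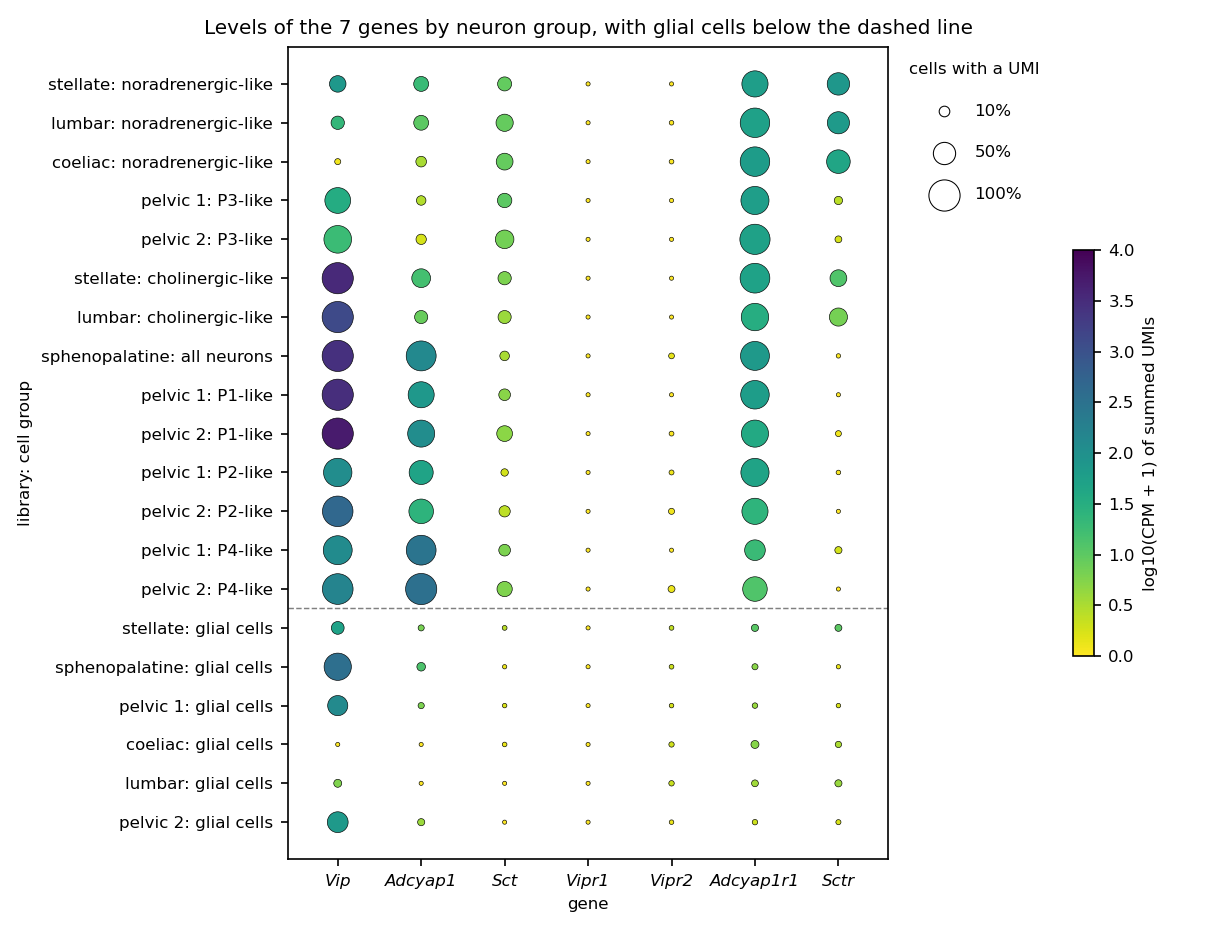
Dot plot of the 7 genes (columns) in 14 groups of neurons and in the glial cells of the 6 libraries (one line each). Colour gives log10 of the summed level in CPM plus 1 and dot size the percent of cells with at least 1 UMI. *Vip* is deepest in sphenopalatine, pelvic P1-like, and stellate and lumbar cholinergic-like neurons. *Adcyap1* is deepest in sphenopalatine and pelvic cholinergic-like neurons, *Sctr* in sympathetic noradrenergic-like neurons, and *Vipr1* is at 0 throughout.

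Of the receptors, that of PACAP was found in every ganglion. *Adcyap1r1* gave 69.6 CPM in the sphenopalatine, 61.5 CPM in the coeliac, 58.1 CPM in the stellate, 50.6 CPM in the lumbar, 49.3 CPM in the pelvic_1 and 32.6 CPM in the pelvic_2 neurons. Between 69.5% and 86.9% of neurons had a UMI of it in each library. Its range over libraries, from 32.6 to 69.6 CPM, was narrow beside those of the peptides. The widest step between neighbours in this order was that between the pelvic libraries, which come from the same ganglion.

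*Sctr* separated the ganglia. It gave 72.2 CPM in the stellate, 61.6 CPM in the lumbar and 43.3 CPM in the coeliac neurons, with a UMI in 49.4%, 46.9% and 54.4% of them. The sphenopalatine library had 5 UMIs of *Sctr* over all its neurons (0.0665 CPM), pelvic_1 had 11 (0.304 CPM) and pelvic_2 had 7 (0.191 CPM). In these 3 libraries the neuronal level lay below that of glia, which was 0.290, 0.685 and 0.745 CPM, and is not told apart from background.

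The receptors of VIP were nearly absent from the counts of neurons. *Vipr1* had 0 UMIs in the neurons and 0 in the glial cells of all 6 libraries, which, taken as a floor of 3 counts and not as a Poisson limit, allows up to 0.0379 CPM in stellate and 0.167 CPM in coeliac neurons. *Vipr2* had 32 UMIs in the sphenopalatine neurons, or 0.426 CPM (0.291 to 0.601), and between 1 and 5 UMIs in the neurons of each other library. Glial cells gave more of *Vipr2* than neurons in all 6 libraries, from 0.298 CPM in pelvic_2 to 1.31 CPM in the stellate. Expression of *Vipr1* in neurons was therefore not detected above its floor at this depth. *Vipr2* differed between neurons of round 1. Its level in sphenopalatine neurons was 33.7 times that in stellate neurons (counting interval 5.62 to 1371), the latter from 1 UMI. The glial level was nonetheless highest in the stellate library. Whether the *Vipr2* UMIs of sphenopalatine neurons are background was not tested.

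Ganglia were compared within a sequencing round, to keep the reagents the same. A gene counted as past the fold where the ratio of summed CPM was at least 4 in either direction and the higher group had at least 10 CPM. No test was possible with 1 library per group. The share of genes past this fold, among all that reached 10 CPM, is given as the background. *Sct*, *Vipr1* and *Vipr2* stayed below 10 CPM in these comparisons of ganglia and could not count. Neither could *Sctr* between pelvic_1 and sphenopalatine neurons, nor *Adcyap1* between coeliac and lumbar neurons. Between sphenopalatine and stellate neurons, 3 of the 7 genes were past it, where 4.74% of 8631 genes were. *Vip* was 16.4-fold higher in the sphenopalatine ganglion (counting interval 16.1 to 16.7) and *Adcyap1* 7.41-fold higher (7.0 to 7.84), and *Sctr* was 1086-fold higher in the stellate ganglion, against 5 UMIs. *Sct* stood at a ratio of 0.285 (0.240 to 0.337) and *Adcyap1r1* at 1.20 (1.15 to 1.25). Without its clusters 7 and 16, described with the clusters, the stellate ganglion gave 23.2 CPM of *Vip* in place of 169 CPM.

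In pelvic_1 against stellate neurons, 2 of the 7 were past the fold, where 3.84% of 8645 genes were. *Vip* was 7.93-fold higher in pelvic_1 (7.78 to 8.09) and *Sctr* 238-fold higher in the stellate. *Adcyap1* was 3.57-fold higher in pelvic_1 (3.34 to 3.82), just short of the fold. Between pelvic_1 and sphenopalatine neurons none of the 7 was past it, where 3.01% of 8634 genes were. There *Vip* stood at a ratio of 0.484 (0.479 to 0.489), *Adcyap1* at 0.482 (0.460 to 0.504) and *Adcyap1r1* at 0.708 (0.671 to 0.747).

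In round 2, 3 of the 7 were past the fold between pelvic_2 and lumbar neurons (3.92% of 8835 genes) and the same 3 between pelvic_2 and coeliac neurons (3.98% of 8910 genes). Against the lumbar chain, *Vip* was 31.4-fold (30.6 to 32.2) and *Adcyap1* 10.4-fold (9.59 to 11.4) higher in pelvic_2. Against the coeliac ganglion, *Vip* was 4014-fold (2298 to 7769) and *Adcyap1* 31.9-fold (24.2 to 42.7) higher. *Sctr* was 322-fold higher in the lumbar chain and 227-fold higher in the coeliac ganglion than in pelvic_2. These comparisons share the pelvic_2 neurons and are not independent. The sympathetic ganglia of round 2 differed in 1 of the 7, *Vip*, which was 128-fold higher in the lumbar chain than in the coeliac ganglion, where 0.535% of 8597 genes were past the fold.

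Neurons of each ganglion were then clustered without the 7 genes. Clusters were called noradrenergic-like or cholinergic-like by the share of their neurons with marker genes of either transmitter. A cluster with both shares at 50% or more was called cholinergic-like. The noradrenergic markers *Th*, *Dbh* and *Slc18a2* had a mean share of 82.1% and 94.9% in the stellate cholinergic-like clusters 15 and 16. It was 70.5% in lumbar cluster 9, also cholinergic-like, and between 16.5% and 36.3% in the pelvic cholinergic-like clusters. The stellate ganglion had 2467 noradrenergic-like and 54 cholinergic-like neurons, the lumbar chain 773 and 43, and the coeliac ganglion 198 of the first kind only. In the pelvic ganglion they were 130 and 657 in pelvic_1 and 32 and 319 in pelvic_2. In the sphenopalatine ganglion 1076 neurons were cholinergic-like and 801 stayed unnamed by the naming rules, and its neurons were used together.

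*Vip* was higher in cholinergic-like than in noradrenergic-like neurons of the stellate, lumbar and pelvic ganglia, which had both classes. In the stellate ganglion it gave 3407 CPM in cholinergic-like and 72.4 CPM in noradrenergic-like neurons, a ratio of 47.1 (45.5 to 48.8). In the lumbar chain it gave 1285 and 21.3 CPM, a ratio of 60.2. In the pelvic ganglion it gave 1693 and 34.1 CPM in pelvic_1 (ratio 49.6) and 3097 and 17.9 CPM in pelvic_2 (ratio 173). The 4 cholinergic-like levels lay above all 4 noradrenergic-like ones. The pelvic noradrenergic-like levels were under those of pelvic glia (126 and 69.2 CPM). Glia were shallower, at medians of 4069 and 11991 UMIs per cell against 39534 and 108546 in pelvic neurons. The glial CPM thus need not equal the free-RNA level of neurons, and whether the noradrenergic-like levels are background was not tested.

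*Adcyap1* was higher in cholinergic-like neurons of the pelvic ganglion, whereas in the sympathetic ganglia its ratio lay nearer to 1. In pelvic_1 it gave 76.4 CPM in cholinergic-like against 1.94 CPM in noradrenergic-like neurons, and in pelvic_2 106 against 0.801 CPM, the latter from 3 UMIs. In the stellate ganglion it gave 14.5 against 18.3 CPM, and in the lumbar chain 7.47 against 9.16 CPM. The ratio was thus 39.4 (21.4 to 82.2) and 132 (45.2 to 641) in the pelvic libraries. It was 0.791 (0.545 to 1.11) and 0.816 in the sympathetic ones, from 34 and 28 cholinergic-like UMIs. This contrast was not tested, since each sympathetic ganglion had 1 library. The sympathetic cholinergic-like clusters also had noradrenergic markers in most neurons, unlike the pelvic ones, so the classes compared are not alike. Fibroblasts, endothelial cells, mural cells and macrophages gave 2.03 to 5.85 CPM in pelvic_1 and 0.383 to 2.13 CPM in pelvic_2. The pelvic noradrenergic-like levels lay under or within these ranges, so the size of the pelvic ratios is uncertain.

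Of the 7, *Vip* and *Sctr* were past the fold between stellate cholinergic-like and noradrenergic-like neurons, where 3.42% of 8614 genes were. *Sctr* was 6.51-fold higher in the noradrenergic-like neurons, at 74.8 against 11.5 CPM, the latter within the 7.15 to 12.2 CPM of fibroblasts, endothelial cells, mural cells and macrophages. *Vip* and *Adcyap1* were past it between the pelvic classes in both libraries, where 3.58% of genes were in pelvic_1 and 3.98% in pelvic_2. *Sct* was lower in cholinergic-like neurons in all 4 libraries, with ratios from 0.285 to 0.616, and *Adcyap1r1* also, with ratios from 0.609 to 0.829. The stellate ratio of *Sct*, 0.616, rested on 12 cholinergic-like UMIs and had a counting interval of 0.316 to 1.08 that includes 1. Its lumbar ratio rested on 11 cholinergic-like UMIs.

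The *Vip* of sympathetic neurons came from a few clusters. In the stellate ganglion, cluster 16 (26 neurons led by *Cartpt*, *Sst* and *Slc18a3*, the vesicular acetylcholine transporter) gave 6716 CPM and held 93.5% of the *Vip* of cholinergic-like neurons. Cluster 15, the other cholinergic-like one (28 neurons led by *Adgrg6*, *Pnoc* and *Slc5a7*), gave 421 CPM. These clusters differed in *Adcyap1* in the opposite direction, at 8.08 CPM (3.69 to 15.3) in cluster 16 and 20.2 CPM (13.1 to 29.9) in cluster 15, with intervals that overlap.

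A further source was noradrenergic-like by its markers. Stellate cluster 7, 174 neurons led by *Sytl4*, *Cbln2*, *Tlx3*, *Creb5* and *Ghrh*, gave 2081 CPM of *Vip*, although 42.5% of its neurons had a UMI of it. Its median depth was 9498 UMIs, the stellate median being 26686, and globin genes stood among its 10 leading genes. The part of depth and of blood RNA in this level was not tested. It held 77.6% of the *Vip* UMIs of stellate noradrenergic-like neurons, which without it gave 16.6 CPM.

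The other stellate clusters gave between 7.74 and 35.3 CPM. Fibroblasts, endothelial cells, mural cells and macrophages of that library, which should lack the gene, gave between 22.3 and 32.5 CPM, and glia 48.3 CPM. Stellate glia were shallower, at a median of 3495 UMIs per cell against 26686 in neurons, so their CPM need not equal the free-RNA level of neurons. *Vip* in these clusters is thus not told apart from background, and whether it is background was not tested.

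The lumbar chain showed a similar set. Its cholinergic-like cluster 9 (43 neurons led by *Sst*, *Calca* and *Shox2*) gave 1285 CPM, with *Vip* in 100% of its neurons. Cluster 5 (86 neurons led by *Cbln2*, *Sytl4*, *Ghrh*, *Creb5* and *Tlx3*) gave 141 CPM and cluster 3 (112 neurons led by *Cntn5*, *Myl1* and *Tbx3*) gave 68.2 CPM. These last clusters held 90.2% of the *Vip* UMIs of lumbar noradrenergic-like neurons, which without them gave 2.75 CPM. Cluster 8, which gave 221 CPM, was left unnamed, since fibroblast genes led it and its median depth was 3413 UMIs. All other lumbar clusters gave between 0.425 and 5.66 CPM, against 0 to 8.21 CPM in the lumbar fibroblasts, endothelial cells, mural cells and macrophages.

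In the coeliac ganglion, whose 4 other cell classes and glia had no *Vip* UMI, the clusters gave 0 to 0.478 CPM. The exception was the unnamed cluster 3, led by *Dcn*, *Sytl4* and *Tlx3*, at 7.31 CPM from 39 neurons. In the sphenopalatine ganglion all 16 clusters gave between 818 and 6065 CPM, with a median of 2558, above the 157 to 216 CPM of its 4 other cell classes. The lowest was cluster 4 (148 neurons led by *Gpr50*, *H19* and *Penk*) and the highest cluster 8 (104 neurons led by *Ddc*, *Phgdh* and *Edil3*).

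**Figure D2:**
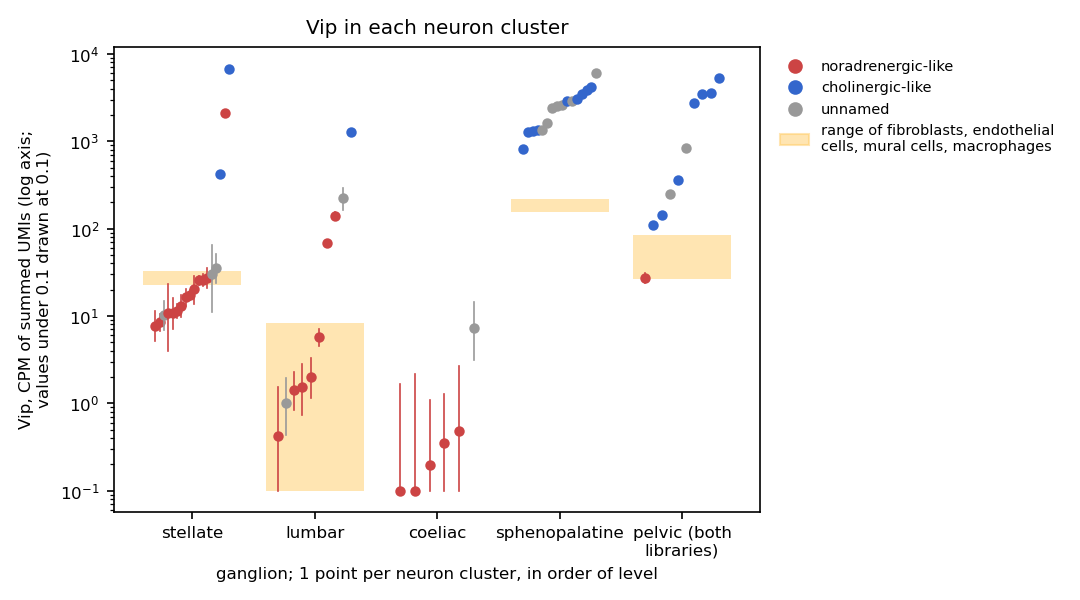
*Vip* level in CPM (log axis) of each cluster of neurons, by ganglion, with bars for exact Poisson limits and a band for the range of fibroblasts, endothelial cells, mural cells and macrophages of the same libraries. All 16 sphenopalatine clusters lie above the band, while most stellate, lumbar and coeliac clusters lie at or near it.

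In the sphenopalatine ganglion *Adcyap1* ranged from 51.6 to 258 CPM over the clusters, with a median of 141. The highest was cluster 11 (75 neurons with *Lgals3*, *Vwc2* and *Plce1* among their leading genes), which had the second lowest *Vip* of the 16, at 1275 CPM. *Adcyap1r1* ranged from 32.5 to 132 CPM, the highest in cluster 5 (146 neurons led by *Npy*, *Cited1* and *Npy1r*). With neurons thinned to 4000 UMIs, both *Vip* and *Adcyap1* were seen in 695 of 1867 sphenopalatine neurons, *Vip* alone in 1152, *Adcyap1* alone in 13 and neither in 7. Neurons with a UMI of *Adcyap1* and none of *Vip* were thus few, in a ganglion where 98.9% of thinned neurons had *Vip*.

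Among stellate neurons, *Adcyap1* was highest in the noradrenergic-like clusters 5 (led by *Uts2b*, *Cited1* and *Grp*) at 46.2 CPM and 3 (led by *Ptprg*, *Slc18a1* and *Pde10a*) at 38.9 CPM. Over the 18 stellate clusters it ranged from 2.34 to 46.2 CPM, against 0 to 3.40 CPM in the stellate fibroblasts, endothelial cells, mural cells and macrophages. *Vip* in both clusters, at 17.4 and 8.54 CPM, lay under the 22.3 to 32.5 CPM of those other cells.

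The pelvic ganglion, with 2 libraries, allowed a test. Raw UMIs were summed per library and class and fitted with edgeR's quasi-likelihood test with the library as a block, and p-values were adjusted by Benjamini-Hochberg over all genes tested. Classes were defined by other genes of the same cells. Of the 7 genes 5 had enough counts to be tested and all 5 passed an adjusted p of 0.05, where 22% of 13914 genes did. Fit on 4 sums, the test had 1 residual degree of freedom and used 1 spread shared by all genes, so its very small p-values rest on that shared spread.

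*Vip* was higher in cholinergic-like neurons by 6.44 on the log2 scale (SE 0.20, edgeR adjusted p = 3.93e-208) and *Adcyap1* by 5.95 (SE 0.26, edgeR adjusted p = 3.15e-109). By library, the log2 ratios of CPM were 5.63 in pelvic_1 and 7.44 in pelvic_2 for *Vip*, and 5.30 and 7.05 for *Adcyap1*. The libraries thus lay further apart than these SE, which come from the shared spread and not from each gene. Without the library block the differences were 6.54 (edgeR adjusted p = 0.00432) and 6.01 (edgeR adjusted p = 0.00384). *Sct*, at 2.60 and 3.20 CPM in cholinergic-like against 9.12 and 6.14 CPM in noradrenergic-like neurons, fell by 1.38 (SE 0.29, edgeR adjusted p = 1.39e-05), but had an edgeR adjusted p of 0.132 without the block.

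*Adcyap1r1*, at 47.8 and 31.2 CPM against 58.6 and 49.9 CPM, fell by 0.44 (SE 0.15, edgeR adjusted p = 0.0136), and its edgeR adjusted p was 0.777 without the block. *Sctr* fell by 3.22 (SE 0.82, edgeR adjusted p = 0.000716, or 0.0803 without the block), on 3 to 8 UMIs per class and library. With DESeq2 the adjusted p was 0.109 for *Sct*, 0.232 for *Adcyap1r1* and 0.209 for *Sctr*, so the calls of these 3 rest on the choice of model. *Vip* and *Adcyap1* were higher in cholinergic-like neurons in both libraries and under both models.

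Cholinergic-like pelvic neurons differed among themselves. Clusters were named after the marker genes of the study's pelvic clusters P1 to P4, with P1-like neurons (224 in pelvic_1 and 157 in pelvic_2), P2-like neurons (252 and 96), P4-like neurons (56 and 31) and the noradrenergic-like P3-like neurons (130 and 32). Among the named types, *Vip* was highest in P1-like neurons, at 3014 CPM in pelvic_1 and 5193 CPM in pelvic_2, or 4104 ± 1540 CPM (SD, n = 2 libraries). P2-like neurons gave 112 and 468 CPM (290 ± 252), P4-like neurons 122 and 158 CPM (140 ± 25) and P3-like neurons 34.1 and 17.9 CPM (26.0 ± 11.5).

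P1-like neurons thus stood above the other named types in both libraries, while the unnamed cluster 8, described with the clusters, stood higher in pelvic_1. In pelvic_1 the summed P2-like and P4-like levels lay at or below the 126 CPM of glia, whereas in pelvic_2 both lay above the glial 69.2 CPM. The pelvic_1 levels lay above the 44.6 to 83.8 CPM of fibroblasts, endothelial cells, mural cells and macrophages of that library. The P2-like level came mainly from a part of the neurons, since the 10% that had the most held 60.7% of the *Vip* UMIs in pelvic_1 and 71.7% in pelvic_2. In pelvic_1, 11.1% of P2-like neurons had at least 10 UMIs of *Vip*, with up to 170 in 1 neuron, against 1.54% and up to 24 among P3-like neurons of like depth. The P2-like sum of pelvic_1 is thus not background throughout.

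*Adcyap1* was highest in P4-like neurons, the cluster marked by *Aldh1a2*, which makes retinoic acid, and led by *Calca*, the gene of calcitonin gene-related peptide. They gave 289 CPM in pelvic_1 and 343 CPM in pelvic_2, or 316 ± 38.0 CPM (SD, n = 2 libraries), with a UMI in 91.1% and 100% of neurons. P1-like neurons gave 73.0 and 111 CPM (92.0 ± 26.8), P2-like neurons 46.5 and 25.1 CPM (35.8 ± 15.2) and P3-like neurons 1.94 and 0.801 CPM (1.37 ± 0.806). The order P4-like, P1-like, P2-like, P3-like was the same in both libraries, and no level of 1 type overlapped that of another.

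Among the pelvic types, the receptor of PACAP was lowest where PACAP was highest. *Adcyap1r1* gave 18.7 and 11.7 CPM in P4-like neurons (15.2 ± 4.90, SD, n = 2 libraries), with a UMI in 42.9% and 61.3% of them. It gave 61.4 and 38.2 CPM in P1-like, 47.0 and 23.9 CPM in P2-like and 58.6 and 49.9 CPM in P3-like neurons. The P4-like level lay under every other in both libraries.

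*Sct* gave 9.12 and 6.14 CPM in P3-like neurons (7.63 ± 2.11, SD, n = 2 libraries), 5.21 and 4.94 CPM in P4-like, 4.10 and 4.01 CPM in P1-like and 0.908 and 1.54 CPM in P2-like neurons. It was thus lowest in P2-like neurons in both libraries.

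**Figure D3:**
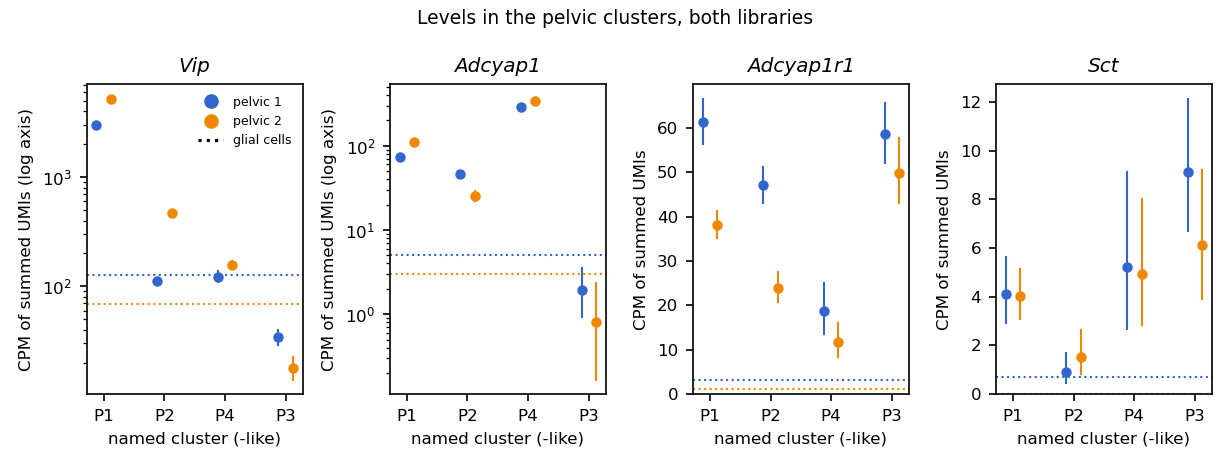
Levels in CPM of *Vip*, *Adcyap1*, *Adcyap1r1* and *Sct* in P1-like, P2-like, P4-like and P3-like pelvic neurons, 1 point per library with exact Poisson limits, and dotted lines for the glial level of each library. *Vip* is highest in P1-like and *Adcyap1* in P4-like neurons, which have the lowest *Adcyap1r1*.

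Among P1-like, P2-like and P4-like sums, edgeR's quasi-likelihood test for any difference called 4 of the 4 genes tested, where 37.5% of 13292 genes were called. From P1-like neurons, *Vip* changed by -4.04 to P2-like and -4.95 to P4-like neurons on the log2 scale (edgeR adjusted p = 5.60e-11), and *Adcyap1* by -1.33 and 1.70 (edgeR adjusted p = 2.18e-08). *Adcyap1r1* changed by -0.51 and -1.79 (edgeR adjusted p = 5.21e-07) and *Sct* by -1.74 and 0.24 (edgeR adjusted p = 0.000895), the latter being -0.21 with each library clustered alone. Without the library block, *Vip* (edgeR adjusted p = 0.0161) and *Adcyap1* (0.0139) passed, and *Sct* (0.0630) and *Adcyap1r1* (0.140) did not.

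P1-like neurons comprised clusters 0 and 2, which differed in *Adcyap1*. Cluster 0, with *Fst*, *Htr7* and *Nrp1* among its leading genes, gave 30.7 and 60.5 CPM of *Adcyap1* in pelvic_1 and pelvic_2, and cluster 2, led by *Gng8*, *Pcp4l1* and *Thy1*, gave 118 and 151 CPM. *Vip* stood the other way, at 3654 and 6379 CPM in cluster 0 and 2339 and 4241 CPM in cluster 2. Clusters 5 and 8, also cholinergic-like, carried none of the pelvic names and much *Vip*. Cluster 5 (led by *Areg* and *Cartpt*) gave 2930 and 2599 CPM, and cluster 8 (led by *Penk*) gave 3897 CPM and, from 7 neurons of pelvic_2, 1998 CPM. *Adcyap1* was low in cluster 5, at 13.8 and 18.2 CPM, and high in cluster 8, at 91.9 and 263 CPM.

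With thinned neurons, *Vip* and *Adcyap1* were seen together in 56 of 224 P1-like neurons of pelvic_1, *Vip* alone in 166 and *Adcyap1* alone in 0. In P4-like neurons of pelvic_1, 7 had both, 13 *Vip* alone, 23 *Adcyap1* alone and 12 neither. The P4-like neurons of pelvic_2 gave 8, 3, 12 and 8. In pelvic_1, *Vip* of P4-like neurons (122 CPM) lay below the 126 CPM of glia. It lay above the 44.6 to 83.8 CPM of fibroblasts, endothelial cells, mural cells and macrophages. Co-expression there is not settled by such pairs of UMIs.

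*Sctr* varied widely among sympathetic noradrenergic-like clusters. The highest levels were 196 CPM in lumbar cluster 2 (120 neurons led by *Fst*, *Caln1* and *Arg1*), 185 CPM in stellate cluster 0 (382 neurons led by *Fst*, *Rxfp1* and *Rnf152*) and 174 CPM in stellate cluster 9 (104 neurons led by *Gal*). The lowest were 0.850 CPM in lumbar cluster 7 (62 neurons led by *Arhgap36*) and 1.87 CPM in stellate cluster 12 (46 neurons led by *Cntn4*). Coeliac clusters ranged from 12.6 to 76.2 CPM. In thinned neurons, *Sctr* was seen in 52.5% of lumbar cluster 2 and 46.1% of stellate cluster 0, and in 0% of both low clusters.

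*Sctr* tended to be higher in clusters with more *Npy*, the neuropeptide of vasoconstrictor neurons, a relation chosen for description after values were seen. *Npy* gave 5455 CPM in lumbar cluster 2 and 7317 CPM in stellate cluster 0, against 90.1 CPM in lumbar cluster 7 and 86.1 CPM in stellate cluster 12. Other clusters did not keep this order, since lumbar cluster 3 gave 9.70 CPM of *Sctr* at 3654 CPM of *Npy*, lumbar cluster 1 74.1 CPM at 1298 CPM, and coeliac cluster 0 12.6 CPM at 2476 CPM. Over the 25 noradrenergic-like clusters of the 3 sympathetic ganglia, Pearson's r of log2(CPM + 1) was 0.81 and Spearman's rho 0.73. Within the ganglia, r and rho were 0.93 and 0.93 over 13 stellate, 0.75 and 0.68 over 7 lumbar and 0.72 and 0.70 over 5 coeliac clusters. Clusters of 1 ganglion share a library and its depth, and these values are descriptions. Pelvic P3-like neurons had 6813 CPM of *Npy* and 1.24 CPM of *Sctr* over both libraries.

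**Figure D4:**
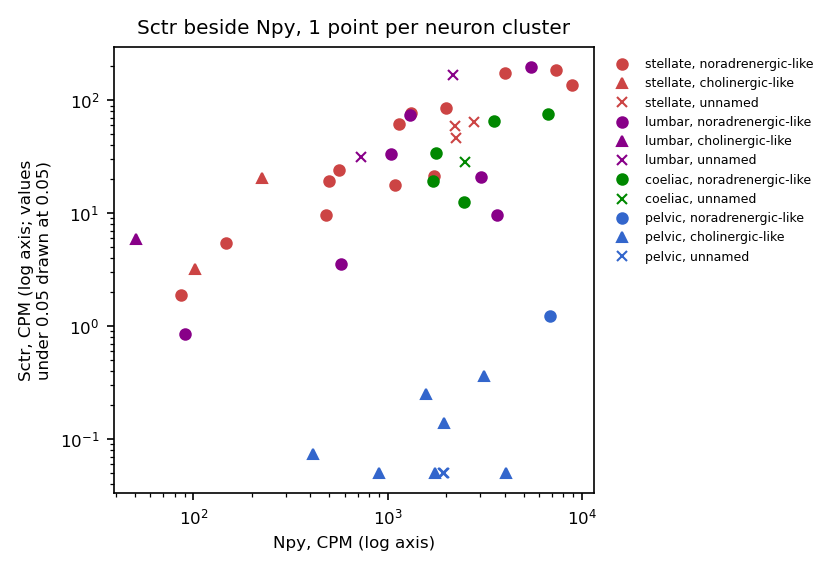
*Sctr* against *Npy* (both in CPM, log axes) for each neuron cluster of the stellate, lumbar, coeliac and pelvic ganglia, with marks for the transmitter class. Among sympathetic noradrenergic-like clusters *Sctr* tends to be higher where *Npy* is higher. The noradrenergic-like pelvic point (P3-like), at 6813 CPM of *Npy*, lies low with 1.24 CPM of *Sctr*, above lumbar cluster 7 at 0.850 CPM.

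Beside glial cells of the same library, 1 of the 7 genes was past the 4-fold in all 6 libraries, *Adcyap1r1*. Past it in either direction were 22.3% of genes in the stellate, 26.5% in the sphenopalatine, 26.2% in pelvic_1, 26.3% in the coeliac, 27.4% in the lumbar and 26.9% in the pelvic_2 library. Genes past it and higher in neurons made up 9.16% (stellate) to 13.6% (sphenopalatine) of a library. The share of genes past it in all 6 was not computed. *Sct*, *Vipr1* and *Vipr2* did not reach the 10 CPM needed to count. *Adcyap1r1* was higher in neurons. The ratio of *Adcyap1r1* in neurons to glia was between 5.84 in the stellate and 31.3 in pelvic_2. In round 1 the ratios were 16.6 for the sphenopalatine and 15.7 for pelvic_1, and in round 2 they were 14.1 for the coeliac and 18.4 for the lumbar library. *Sctr* was 7.77-fold, 19.9-fold and 19.6-fold higher in neurons of the stellate, coeliac and lumbar libraries. *Vip* was 3.49-fold higher in stellate neurons than in glia, and between 7.79-fold and 38.7-fold higher in the sphenopalatine, lumbar and both pelvic libraries.

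Fibroblasts carried *Adcyap1r1* in all libraries. They gave between 20.7 and 26.5 CPM, or 38.0% to 63.4% of the neuronal level, whereas the neuronal gene list stood at 1.11% to 11.3% of its neuronal level in them. Mural cells, which wrap small vessels, gave between 4.10 and 30.8 CPM. Chromaffin and small intensely fluorescent cells, which store catecholamines and were found in the pelvic libraries (160 and 33 cells), gave 83.4 CPM (67.2 to 102) in pelvic_1 and 107 CPM (83.2 to 135) in pelvic_2. Their levels lay above the 49.3 and 32.6 CPM of the neurons in the same libraries. They also held *Sctr*, at 29.0 CPM (19.8 to 40.9) and 26.3 CPM (15.3 to 42.2), where pelvic neurons gave 0.304 and 0.191 CPM.

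The receptors of VIP appeared outside the neurons, on few UMIs. *Vipr2* had 27 UMIs in mural cells, at 11.6 CPM in the sphenopalatine, 10.4 CPM in pelvic_1, 2.82 CPM in pelvic_2 and 0 in the stellate library. In pelvic_2 macrophages gave more, at 4.27 CPM, and in the stellate glia did, at 1.31 CPM. *Vipr1* had 11 UMIs in macrophages, at 0 to 3.90 CPM, 8 in mural cells, at 0 to 2.60 CPM, 4 in endothelial cells, 3 in the 30 epithelial cells of 1 library and 1 in fibroblasts.

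**Figure D5:**
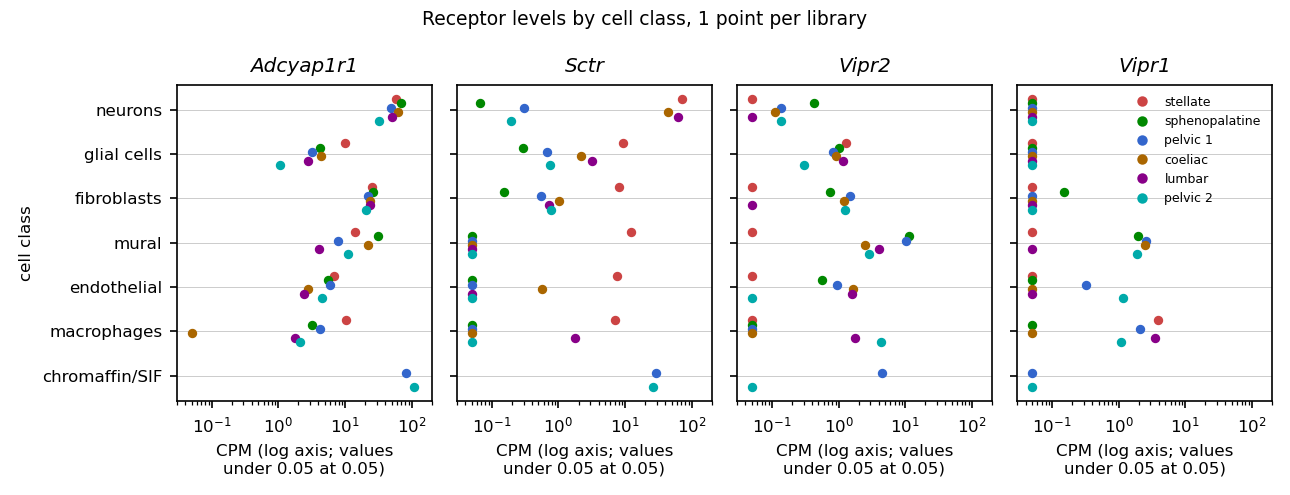
Levels in CPM of the receptor genes *Adcyap1r1*, *Sctr*, *Vipr2* and *Vipr1* by cell class, 1 point per library. *Adcyap1r1* is seen in neurons, fibroblasts and chromaffin-type cells, *Sctr* in sympathetic neurons and chromaffin-type cells, and *Vipr2* and *Vipr1* stay near 0 in neurons.

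Some of the 14 groups of neurons compared next share a library, and none share neurons. The genes that rose and fell most closely with a member were named by the highest Pearson correlation of log2(CPM + 1) over these groups. For *Vip* they were *Cd9* (0.96), *Gadd45g* (0.91) and *Xaf1* (0.90), and for *Adcyap1* they were *Dcbld2* (0.94), *Klc2* (0.90) and *Map3k20* (0.90). For *Adcyap1r1* they were *Tbc1d16* (0.95), *Gcsh* (0.94) and *Rgs3* (0.93), and for *Sctr* they were *Bmpr1b* (0.97), *Omp* (0.95) and *Pthlh* (0.94). Such values are the highest among many genes and are descriptions. They do not compare the size of levels, since *Klc2* ran from 51.1 to 92.9 CPM and *Adcyap1* from 0.801 to 343 CPM.

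Lists of related genes were counted beside the members. Their edgeR calls come from the fit with the library block and were not checked without it or with DESeq2. Over all genes, calls between the pelvic classes fell from 3055 to 572 without the block and to 1553 with DESeq2. Of 8 other genes of the glucagon family, 1 was at a level to be tested between sphenopalatine and stellate neurons. This was *Gcgr*, the glucagon receptor, which was past the fold (4.74% of all genes were), at 15.8 against 1.28 CPM (12.4-fold). *Gcgr* was also 12.6-fold higher in pelvic_1 than in the stellate (3.84% of all genes were past the fold) and 7.80-fold higher in pelvic_2 than in the lumbar neurons (3.92%). Between the pelvic classes, edgeR called both tested genes of this list, where it called 22% of all genes. *Gcgr* was higher in cholinergic-like neurons by 1.24 (log2, edgeR adjusted p = 1.35e-06). *Glp1r*, the receptor of glucagon-like peptide 1, fell by 2.53 (edgeR adjusted p = 2.88e-15). By fold, both were past 4 between the classes in pelvic_2 and neither was in pelvic_1.

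Of 20 genes that make or receive cAMP, 15 were tested between sphenopalatine and stellate neurons and 2 were past the fold (4.74% of all genes were), both higher, the adenylate cyclases *Adcy2* (10.0-fold) and *Adcy5* (5.03-fold). The median log2 ratio of the 15 was 0.24, against 0.06 over all genes tested. Between the pelvic classes, where edgeR called 22% of all genes, it called 7 of 18, of which 5 were higher in cholinergic-like neurons (*Adcy2* by 4.82 on the log2 scale, edgeR adjusted p = 5.65e-53) and 2 lower. Of 11 phosphodiesterases that break down cAMP, edgeR called 5 of 9 tested, 4 higher and 1 lower, *Pde3a*, which fell by 3.00 (edgeR adjusted p = 1.50e-64).

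Of 5 enzymes and helpers that cut and finish peptides, none was past the fold between sphenopalatine and stellate neurons (4.74% of all genes were). Between the pelvic classes, where 22% of all genes were called with the library block, edgeR called 5 of 5. *Cpe*, *Pam* and *Scg5* were higher by 0.46 to 0.54 on the log2 scale, and *Pcsk1* and *Pcsk2* lower. *Pcsk2*, a convertase of peptide precursors, fell by 3.12 (edgeR adjusted p = 2.40e-96). Of 3 receptor partners of the RAMP family edgeR called 0 of 3, with adjusted p from 0.261 to 0.777, and of 2 tested peptide-degrading enzymes it called *Mme*, neprilysin, which fell by 4.92 (edgeR adjusted p = 8.96e-52). The median over all genes in this fit was -0.00 on the log2 scale, against -0.64 for the glucagon family, -0.04 for cAMP production, 0.44 for cAMP breakdown, 0.46 for peptide processing, 0.25 for the RAMP genes and -2.59 for peptide breakdown. Among P1-like, P2-like and P4-like neurons, where 37.5% of all genes were called with the library block, edgeR called *Gcgr* (2.70 to P2-like and -3.94 to P4-like on the log2 scale, edgeR adjusted p = 1.15e-09), 10 of 17 genes of cAMP production, 8 of 9 phosphodiesterases, 2 of 3 RAMP genes, 3 of 5 of peptide processing and 2 of 2 of peptide breakdown.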

How the data were processed

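The authors deposited raw UMI counts per gene and droplet, made per the labels with Cell Ranger 6.0.1 on mm10. The annotation release is not given in the sources used here. The 7 genes and all lists were chosen with earlier results of these data known.

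Droplets had to exceed 1500 detected genes, stay below 11000 and hold less than 15% mitochondrial UMIs, the limits of the study. Neurons were taken by mean scaled marker level (sctransform 0.4.2). Neurons were clustered per ganglion without the 7 genes. Doublets were scored but kept (0.114% to 3.62% of droplets per library). Deposited UMIs per library ran from 39353313 to 113352559. Ganglia were pooled, and nothing in the sources used here ties the pelvic libraries to single animals, so p-values do not measure spread between animals. Between the classes they rest on how class differences varied between these libraries over all genes, taken as a shared spread. They do not measure how the difference of a single gene varied. The 3 genes nearest to a member are those of highest correlation over neuron groups. The pelvic sums were fitted with edgeR 4.0.16 (filterByExpr, TMM, library as block) and, as an alternative, DESeq2 1.42.0. Sums of the same library deviated together (r = 0.652 over 13914 genes). Sums of a library share its pups, round and reagents. The test between classes was run on simulated counts whose libraries differed in depth only. It found 72 of 100 genes changed 2-fold and 93 of 100 changed 4-fold, with 6 false calls among 171. Sums that deviate together by library were not simulated. Alternatives changed the droplet limits, thinning, fold, level, class markers, clustering and model. Removal of shallow neurons, glia by threshold alone, and classes kept with clusters led by non-neuronal genes were added after seeing the data. The driver of the Cre transgene and some leading genes of clusters are not reported here.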

Additional observations from a re-analysis of the deposited data

Results flagged for a closer look

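The ratio of *Adcyap1* between transmitter classes lay below 1 in the sympathetic ganglia and above 1 in both pelvic libraries. Its level in cholinergic-like over noradrenergic-like neurons was 0.791 in the stellate ganglion, with a counting interval of 0.545 to 1.11 that includes 1. It was 0.816 in the lumbar chain, from 28 cholinergic-like UMIs and without an interval, but 39.4 in pelvic_1 and 132 in pelvic_2. A ratio below 1 is thus not shown for either sympathetic ganglion. The difference was not tested, since each sympathetic ganglion had 1 library. Classes of the same name are not alike here, as the sympathetic cholinergic-like clusters also had noradrenergic markers in most neurons. The size of the pelvic ratios is uncertain, since their noradrenergic-like levels lay under or within the range of non-neuronal cell classes.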

How the results depend on the processing

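The change of *Sct* from P1-like to P4-like neurons, 0.24 on the log2 scale, became -0.21 with each library clustered alone. The pairing of sums by library carried the pelvic tests: without the replicate block, 2 members (*Vip* and *Adcyap1*) were called between transmitter classes and 2 among cholinergic-like clusters, and DESeq2 also called 2 between the classes. Over all genes, the 3055 calls between classes became 572 without the block and 1553 with DESeq2, and the 4980 among clusters became 944 without the block, 2967 with DESeq2 and 2725 with each library clustered alone. At a fold of 2, 2 members passed between pelvic_1 and sphenopalatine neurons, in place of 0. Thinned, 1 member (*Vip*) passed between stellate classes and 1 between pelvic classes, and stellate classes by their own markers also gave 1. Against glia, 0 members passed in all libraries under stricter limits on genes and mitochondrial counts per droplet, and 2 (*Sct* and *Adcyap1r1*) at a level of at least 1 CPM. Without either pelvic replicate, 2 members passed between pelvic classes, with log2 differences of 5.63 to 7.44 for *Vip*, 5.30 to 7.05 for *Adcyap1*, -1.81 to -0.94 for *Sct*, -0.68 to -0.29 for *Adcyap1r1* and -3.84 to -2.66 for *Sctr*. These have no test, as no residual degrees of freedom remain. The causes were not tested. At 0 UMIs of *Vipr1* in neurons, levels under its floor of 3 counts were not detectable.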
